A study of Homo sapiens with 8 samples.

Results

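RNA of MDA-MB-231 cells that overexpressed wild-type DAXX (WT OE) was compared with RNA of cells that overexpressed the SUMO-binding mutant (DSM OE), gene by gene. The table holds 36991 genes, of which 10465 reached an FPKM (fragments per kilobase of transcript, scaled to the mapped fragments of the library) of 1 in 2 or more of the 8 libraries and were compared. MDA-MB-231 is an established triple-negative breast cancer cell line. All 4 lines of the study were made from it by lentiviral transduction and puromycin selection, and 2 libraries per line were analysed. A scrambled shRNA was carried by the control line and a *DAXX* shRNA by the KD line. WT OE cells carried the unchanged *DAXX* cDNA, and DSM OE cells a *DAXX* cDNA in which point mutations disable both SUMO-interaction motifs. According to the study's methods the cDNAs were tagged and driven by the CMV immediate early promoter, and the shRNAs by the H1 promoter. No line with an empty cDNA vector was analysed here, so each overexpression line differs from the control in its vector as well as in DAXX. Each condition is 1 line, and a trait of that line cannot be told apart from the form of DAXX that it carries. In the DSM OE titles the letters WT appear too. The genotype label names DSM and was used. The design text speaks of duplicate cultures and the treatment notes of triplicates, so p-values measure the spread between the 2 libraries of a line, which may be technical in part.

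DAXX is a nuclear protein that deposits the histone variant H3.3 together with ATRX and acts as a corepressor or coactivator of transcription. It has a SUMO-interaction motif at each end. These short hydrophobic stretches bind SUMO, a small protein that is attached to other proteins, and they bring DAXX to PML nuclear bodies and to sumoylated transcription factors. In the study the mutant serves to ask which effects of DAXX on gene expression need SUMO binding.

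*DAXX* mRNA was above both control libraries in both overexpression lines, and highest in the wild-type line. Its FPKM was 158 and 283 with the wild-type cDNA and 64.6 and 93.8 with the mutant one. The control libraries were at 25.3 and 37.4, and the knockdown libraries at 8.60 and 7.30. The WT OE and DSM OE libraries did not overlap, with the duplicates of WT OE further apart than the lower of them was from the higher DSM OE library on the log2 scale. The log2 difference of FPKM + 1 between WT OE and DSM OE was 1.43 (standard error 0.34) and did not pass the test (limma, adjusted p = 0.122). The forms of DAXX were thus compared at unequal levels of *DAXX* mRNA, and mRNA level and mutation cannot be told apart in any gene below. Protein was not measured in these libraries. In these bulk libraries fewer expressing cells and less RNA per cell cannot be told apart either. FPKM does not separate the endogenous transcript from the introduced cDNA.

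The libraries were alike in their sums and in the spread of their duplicates. Summed FPKM was between 162318 and 166886 in the 8 libraries. The duplicates of a line correlated across genes with a Pearson r of 0.936 to 0.948, genes not being independent replicates. Between 502 and 579 genes per line differed by more than 1 on the log2 scale between duplicates, among them *CANX* of DSM OE (0.522 and 134) and *FASN* of WT OE (12.5 and 118). Of the 167 genes called below, 2 differed that much between the duplicates of WT OE or of DSM OE. Marker lists were mixed. *AXL*, a receptor kinase gene of mesenchymal-like breast cancer lines, was between 99.2 and 194 in the 8 libraries. *CDH2*, from the same list of mesenchymal markers, was listed at 0 in all of them, and *TWIST1* was at 0.10 or below. *VIM* was at 39.1 and 970 in the KD duplicates. *ESR1* and *PGR*, the hormone receptor genes that triple-negative cells lack, were listed at 0. *KRT19*, which shares their list of epithelial and luminal markers, was between 81.8 and 297.

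In the comparison of WT OE with DSM OE, 99 genes were higher and 68 lower in WT OE at an adjusted p under 0.05 in limma, which is 0.946% and 0.65% of the genes tested and 1.6% in both directions. At an unadjusted p under 0.05 the counts were 919 (8.78%) and 820 (7.84%). The median log2 difference was 0.98 among the genes called higher and 1.03 in size among those called lower, against 0.21 in size over all genes tested. Of the called genes 48 and 41 differed by more than 1 on the log2 scale. In 22 of the 99 genes the mean FPKM in DSM OE was under 0.5, and in 14 of the 68 that in WT OE was. Such a gene was close to silent in 1 of the lines, a state found in 336 of the 10465 genes.

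These counts depend on the libraries and the degrees of freedom of the fit. Each fit with a library left out has 3 residual degrees of freedom instead of 4 and another estimate of the spread. A control or KD library does not enter the difference of WT OE and DSM OE. A call lost without it therefore comes from the spread and the degrees of freedom, not from the size of the difference. Leaving out each of the 8 libraries in turn gave 16 to 77 genes higher (fewest without either KD library, most without DSM OE replicate 1) and 7 to 46 lower (fewest without either KD library, most without WT OE replicate 1). A fit of the WT OE and DSM OE libraries alone, with 2 residual degrees of freedom, called 0 genes in either direction, with 713 higher and 674 lower at an unadjusted p under 0.05. All 167 genes had the same sign in every fit with a library left out. Such a fit cannot turn the sign where the libraries of WT OE and DSM OE do not overlap, so this is no test for such genes. The call itself was kept in all 8 of these fits by 20 genes, 14 higher and 6 lower, and in none of them by 59 and 44. Genes of this kind are described first.

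**Figure D1:**
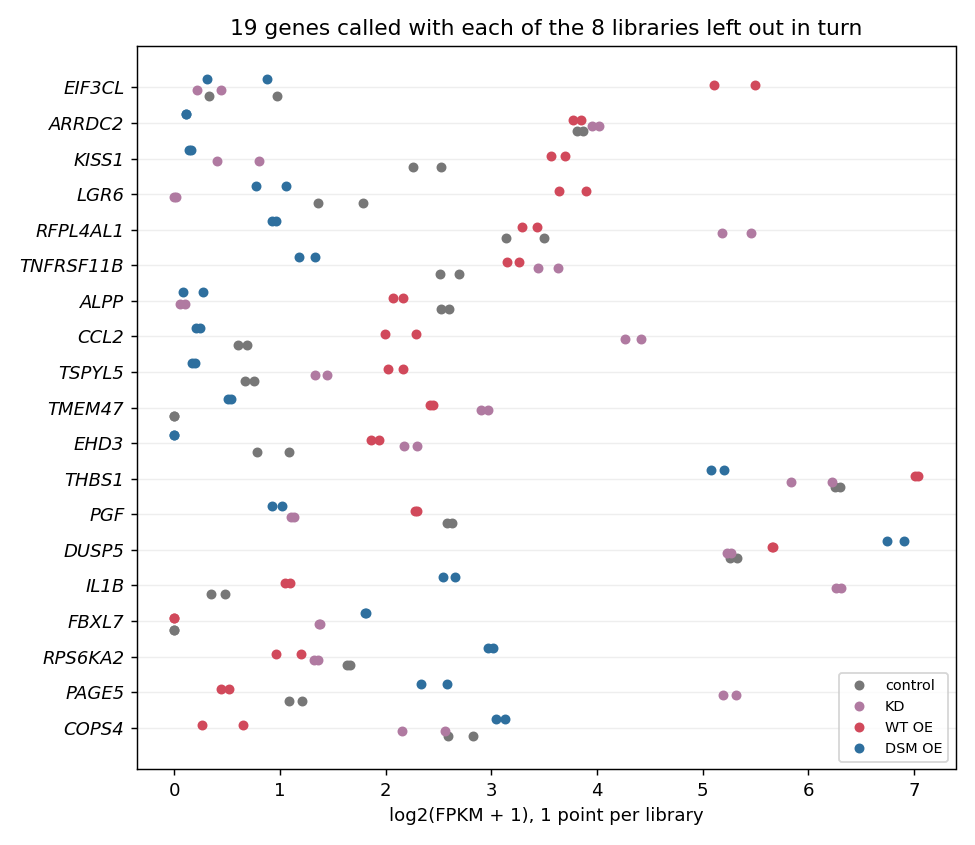
Levels of 19 of the 20 genes that were called with any library left out, as log2(FPKM + 1) with 1 point for each of the 8 libraries, coloured by line (grey control, purple KD, red WT OE, blue DSM OE). The upper 13 genes have both WT OE points to the right of both DSM OE points and the lower 6 to the left, while the control and KD points lie between the lines, near either or beyond both, depending on the gene.

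Several of the 14 genes encode signalling proteins. *KISS1* encodes the precursor of the kisspeptins, ligands of a G protein-coupled receptor, and was named as a suppressor of metastasis. It was at 12.01 and 10.8 in WT OE against 0.116 and 0.103 in DSM OE, with control in between at 4.76 and 3.80 and KD at 0.747 and 0.327 (log2 difference 3.48, standard error 0.17, adjusted p = 0.00368). *LGR6* encodes a receptor for R-spondins, which strengthen WNT signalling. Its FPKM was 11.5 and 13.9 in WT OE, 0.706 and 1.08 in DSM OE, 1.58 and 2.44 in control, and 0 and 0.0110 in KD (log2 difference 2.85, standard error 0.19, adjusted p = 0.00598). In both genes WT OE stood above the control libraries and DSM OE below them.

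*ARRDC2*, which encodes an arrestin-domain protein, was low in the DSM OE line and in no other. It was at 13.4 and 12.7 in WT OE, 13.6 and 13.0 in control, 14.5 and 15.2 in KD, and 0.0805 and 0.0790 in DSM OE (log2 difference 3.70, standard error 0.09, adjusted p = 0.000265). *EIF3CL* had the opposite layout, being high in WT OE alone at 33.5 and 44.2, with 0.160 to 0.958 in the 6 other libraries (log2 difference 4.71, adjusted p = 0.00588). It is a near-identical copy of *EIF3C*, a subunit gene of translation initiation factor 3, and the split of reads between the copies is uncertain. *EIF3C* was listed at 0.853 and 12.8 in WT OE against 0.621 and 2.82 in DSM OE. A like caution holds for *RFPL4AL1* (9.83 and 8.79 in WT OE against 0.903 and 0.946 in DSM OE, adjusted p = 0.00598) and its neighbour *RFPL4A* (17.7 and 17.9, and 1.10 and 1.43, adjusted p = 0.283), and for *ALPP*, placental alkaline phosphatase (3.47 and 3.20, and 0.0581 and 0.207, adjusted p = 0.00552), which has close copies.

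Secreted proteins make up another group among the 14. *THBS1*, which encodes thrombospondin-1, a matrix protein that restrains angiogenesis, was the most abundant of them. It was at 128 and 131 in WT OE, 32.7 and 35.7 in DSM OE, 75.4 and 77.9 in control, and 73.8 and 56.0 in KD (log2 difference 1.89, standard error 0.14, adjusted p = 0.00808). *TNFRSF11B*, which encodes osteoprotegerin, the decoy receptor for RANKL, was at 7.87 and 8.56 in WT OE against 1.26 and 1.52 in DSM OE (log2 difference 1.95, adjusted p = 0.00598). *PGF*, which encodes a ligand of VEGF receptor 1, was at 3.93 and 3.85 in WT OE against 0.900 and 1.03 in DSM OE (log2 difference 1.31, adjusted p = 0.00849). *CCL2*, a chemokine gene that draws monocytes, was at 2.99 and 3.90 in WT OE against 0.156 and 0.188 in DSM OE, and at 18.3 and 20.3 in KD. Also among the 14 were *TSPYL5*, *TMEM47* and *EHD3*, the last of which encodes a protein of endocytic recycling. *EHD3* was listed at 0 in both DSM OE libraries and was at 2.84 and 2.64 in WT OE.

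The 6 genes that were lower in WT OE in every such fit include inhibitors and effectors of ERK. *DUSP5* encodes a nuclear phosphatase of ERK. Its FPKM was 49.3 and 49.6 in WT OE, 106 and 119 in DSM OE, 37.4 and 39.2 in control, and 36.5 and 37.4 in KD (log2 difference -1.16, standard error 0.09, adjusted p = 0.00849). *RPS6KA2*, which encodes a kinase downstream of ERK, was at 1.29 and 0.944 in WT OE, 7.08 and 6.82 in DSM OE, 2.10 and 2.17 in control, and 1.56 and 1.499 in KD (log2 difference -1.91, standard error 0.12, adjusted p = 0.00588). Both were highest in DSM OE.

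*COPS4*, which encodes a subunit of the COP9 signalosome, a regulator of cullin ubiquitin ligases, was low in WT OE alone. It was at 0.198 and 0.572 there and between 3.45 and 7.77 in the 6 other libraries (log2 difference -2.63, standard error 0.20, adjusted p = 0.00849). The 9 other subunits tested were not called. *IL1B*, the interleukin-1 beta gene, was at 1.06 and 1.14 in WT OE against 5.29 and 4.82 in DSM OE, with 75.9 and 78.3 in KD. *FBXL7*, which encodes an F-box protein, was listed at 0 in both WT OE and both control libraries and was at 2.52 and 2.49 in DSM OE. *PAGE5*, a cancer-testis gene on the X chromosome, was at 0.429 and 0.360 in WT OE, 4.99 and 4.03 in DSM OE, and 35.5 and 38.9 in KD (adjusted p = 0.00598).

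The control line lay between the overexpression lines more often among the called genes than among all genes tested. In 41 of the 99 genes both WT OE libraries were above both control libraries and both DSM OE libraries were below them (41.4%, against 2.19% of all genes tested), and in 29 of the 68 the order was the opposite (42.6%, against 1.75%). The choice of genes that differ between WT OE and DSM OE favours this layout, so the shares are a description. In 14 of the 99 and 19 of the 68 both lines were above control (14.1% and 27.9%, against 18.3% of all genes tested). In 21 of the 99 and 8 of the 68 both were below (21.2% and 11.8%, against 16.6%). WT OE overlapped control while DSM OE was below it in 13 of the 99, *ARRDC2* among them (13.1%, against 9.0% of all genes tested). WT OE overlapped control while DSM OE was above it in 7 of the 68 (10.3%, against 10.9%). Over all genes tested, WT OE was above control without overlap in 28.9% and below in 25.2%, and DSM OE in 31% and 27.8%, so most genes departed from control by this loose measure. WT OE and DSM OE did not overlap in 24.2% of the genes with WT OE higher (2533 genes) and in 23.7% with WT OE lower (2481 genes).

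Genes of cholesterol synthesis stood higher in WT OE than in DSM OE. Of the 21 genes, 2 were called higher and 0 lower, with 14 higher and 1 lower at an unadjusted p under 0.05, against 8.78% and 7.84% of all genes tested. The median log2 difference was 0.63, against -0.01 over all genes tested. *HSD17B7*, which encodes a 3-ketosteroid reductase of the pathway, was at 5.81 and 5.95 in WT OE against 2.99 and 2.07 in DSM OE (log2 difference 0.97, standard error 0.15, adjusted p = 0.0458). The WT OE libraries lay about the level of control, where *HSD17B7* was at 6.28 and 5.83, and the DSM OE libraries lay below it.

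The steps of the pathway did not stand apart alike. The genes of its entry and of isoprenoid synthesis had log2 differences of 0.83 in *ACAT2*, 0.88 in *HMGCS1*, 0.82 in *IDI1* and 0.65 in *FDPS*, with adjusted p from 0.0720 to 0.125. *MVD*, which encodes the decarboxylase of mevalonate diphosphate, had a log2 difference of 0.001. *EBP*, which encodes the sterol isomerase, went the other way, with 8.04 and 5.43 in WT OE, 16.9 and 17.3 in DSM OE, and 26.9 and 15.4 in control (log2 difference -1.25, adjusted p = 0.103). Summed over the pathway, FPKM was 600 and 592 in WT OE, 409 and 398 in DSM OE, 639 and 616 in control, and 342 and 332 in KD. The call of *HSD17B7* was lost with each library left out but DSM OE replicate 1.

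Other lipid genes were closer to the median of all genes. Of 17 genes of fatty acid synthesis 0 were called by limma, 2 were higher and 0 lower at an unadjusted p under 0.05, and the median was -0.01, equal to that over all genes tested. *SCD*, which encodes stearoyl-CoA desaturase, was at 307 and 335 in WT OE against 267 and 261 in DSM OE (log2 difference 0.28, adjusted p = 0.179). *ACLY*, which encodes ATP citrate lyase, was at 121 and 111, and 86.2 and 74.8 (adjusted p = 0.503). Of 14 genes of SREBP processing and sterol uptake, which sense and import sterols, 0 were called and 2 were higher at an unadjusted p under 0.05, with a median of 0.17. *G0S2*, whose product inhibits the lipase ATGL, was lower in WT OE at 95.1 and 77.0, against 145 and 162 in DSM OE and 26.7 and 27.2 in control (log2 difference -0.83, adjusted p = 0.0457), a call lost with each library left out.

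Genes of the integrated stress response leaned the other way. In this response, kinases that sense amino acid shortage or stress phosphorylate the initiation factor eIF2, the translation of ATF4 rises, and ATF4 switches on genes of amino acid import, serine synthesis and tRNA charging. Of 34 genes tested, 2 were called lower and 0 higher in WT OE, against 0.65% and 0.946% of all genes tested. At an unadjusted p under 0.05, 19 were lower and 1 higher, against 7.84% and 8.78%. A negative sign was seen in 29. The median log2 difference was -0.54, against -0.01 over all genes tested. *GDF15*, a stress-induced cytokine gene, was at 5.56 and 3.90 in WT OE against 17.1 and 19.6 in DSM OE, and the control libraries, at 14.3 and 16.7, were near DSM OE (log2 difference -1.76, standard error 0.19, adjusted p = 0.0220). *PSAT1*, a gene of serine synthesis, was at 92.5 and 91.2 in WT OE, 149 and 139 in DSM OE, 40.9 and 36.7 in control, and 45.01 and 44.4 in KD (log2 difference -0.65, standard error 0.09, adjusted p = 0.0390). The *PSAT1* call was lost with each library left out and the *GDF15* call with each but WT OE replicate 1.

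In 20 of the 34 genes both lines were above control, a layout found in 18.3% of all genes tested. In 13 of these 20 DSM OE was also above WT OE, the layout of *PSAT1*. The WT OE libraries were above both control libraries in 22 of the 34 genes and the DSM OE libraries in 27. Over all genes tested these shares were 28.9% for WT OE and 31% for DSM OE. Summed over the list, FPKM was 1866 and 1759 with the mutant and 1542 and 1362 with wild-type DAXX. The control sums were 970 and 1032, and those of KD 1032 and 962. *ATF4* mRNA was at 244 and 228 in WT OE against 247 and 207 in DSM OE, above 163 and 167 in control, with a log2 difference of 0.06 (adjusted p = 0.820) between the overexpression lines. The targets with the larger differences were *PCK2* (4.83 and 7.74, against 13.0 and 20.7), *SESN2* (16.8 and 12.2, against 29.0 and 29.6) and *DDIT4* (148 and 130, against 238 and 221), with adjusted p from 0.0546 to 0.111. The tRNA synthetase genes did not move alike, since *AARS1* was at 65.1 and 57.3 against 99.2 and 108 and *GARS1* at 95.3 and 95.4 against 102 and 93.3. *GTPBP2* and *INHBE*, which are also induced by ATF4 but were not on the list, were called lower in WT OE and are named after their values were seen (12.9 and 11.6 against 28.2 and 23.8, and 1.60 and 1.31 against 4.62 and 3.44, both adjusted p = 0.0419). Their calls were lost with each library left out.

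ATF4 binds, with C/EBP partners, a composite site whose core was searched here as TGATGNAA on both strands, in windows from 250 bases before to 50 bases after each start site of the RefSeq annotation (GRCh38.p14). Of the 30 genes of the list with such a sequence at hand, 11 held a match (36.7%), against 2.54% of the 8353 tested genes with one. Windows around the match are shown for 4 of them to let the core be seen in its setting, 5′ to 3′ on the strand of the gene, with the match in capitals. In *CHAC1* and *AARS1* the core lies on the opposite strand and so appears as its reverse complement. A match is a description of the sequence, and binding was not measured in these data.
ASNS chr7:97872444-97872501 (minus strand): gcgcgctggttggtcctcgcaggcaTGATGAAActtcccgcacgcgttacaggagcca
CHAC1 chr15:40953237-40953294 (plus strand): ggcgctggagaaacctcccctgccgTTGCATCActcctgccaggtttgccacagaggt
AARS1 chr16:70289661-70289718 (minus strand): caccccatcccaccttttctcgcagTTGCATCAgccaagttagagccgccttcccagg
CEBPG chr19:33374046-33374103 (plus strand): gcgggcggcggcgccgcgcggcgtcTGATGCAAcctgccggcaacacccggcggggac
The 4 genes had log2 differences of -0.44 in *ASNS*, -0.56 in *CHAC1*, -0.75 in *AARS1* and -0.42 in *CEBPG* (adjusted p = 0.614, 0.252, 0.0843 and 0.111). *GDF15* and *PSAT1* held no match in their windows. *GARS1*, whose WT OE and DSM OE libraries overlapped, did hold a match. Whether a match goes with the size of the difference was not tested.

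The unfolded protein response, the stress signalling of the endoplasmic reticulum, did not go along with the ATF4 genes. Of 23 genes for its sensors and chaperones, 0 were called by limma, against 1.6% of all genes tested. At an unadjusted p under 0.05, 7 were higher and 1 lower in WT OE, against 8.78% and 7.84%. A positive sign was seen in 21. The median log2 difference was 0.34. *HSPA5*, which encodes the chaperone BiP, was at 178 and 181 in WT OE against 152 and 142 in DSM OE, against 200 and 190 in control (log2 difference 0.29, adjusted p = 0.159). *CALR*, which encodes calreticulin, was at 330 and 221 in WT OE against 163 and 238 in DSM OE (adjusted p = 0.498), so that its libraries overlapped. *ERN1*, which encodes the sensor IRE1, was 1 of the 2 genes with a negative sign, at 1.08 and 0.867 in WT OE against 2.49 and 2.26 in DSM OE (log2 difference -0.77, adjusted p = 0.111). The sum of the list rests partly on *CANX*, which stood apart between the DSM OE duplicates.

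The chaperone genes are known for the ER stress element, searched here on both strands as CCAAT and CCACG with any 9 bases between them. Of 22 genes of the list with a promoter sequence, 7 held it (31.8%), against 0.192% of the tested genes. It is shown in 3 of them for comparison with the composite site above, with the element in capitals.
HSPA5 chr9:125241366-125241434 (minus strand): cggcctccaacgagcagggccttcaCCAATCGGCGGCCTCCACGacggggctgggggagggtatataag
PDIA6 chr2:10812828-10812896 (minus strand): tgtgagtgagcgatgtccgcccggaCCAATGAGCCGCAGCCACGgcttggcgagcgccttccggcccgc
HSP90B1 chr12:103930191-103930259 (plus strand): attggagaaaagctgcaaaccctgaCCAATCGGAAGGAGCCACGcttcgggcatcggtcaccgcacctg
Their log2 differences between WT OE and DSM OE were 0.29 in *HSPA5*, 0.34 in *PDIA6* and 0.20 in *HSP90B1*. In the integrated stress response list 0 of 30 genes held the ER stress element, and in the unfolded protein response list 2 of 22 held the composite site (9.09%). Of 16 genes of cholesterol synthesis with a promoter sequence, 0 held the sterol regulatory element in the form TCACNCCAC, which 1.38% of the tested genes held. Other forms of the element and sequence outside the windows were not searched. The count therefore does not show that these genes lack the element.

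**Figure D2:**
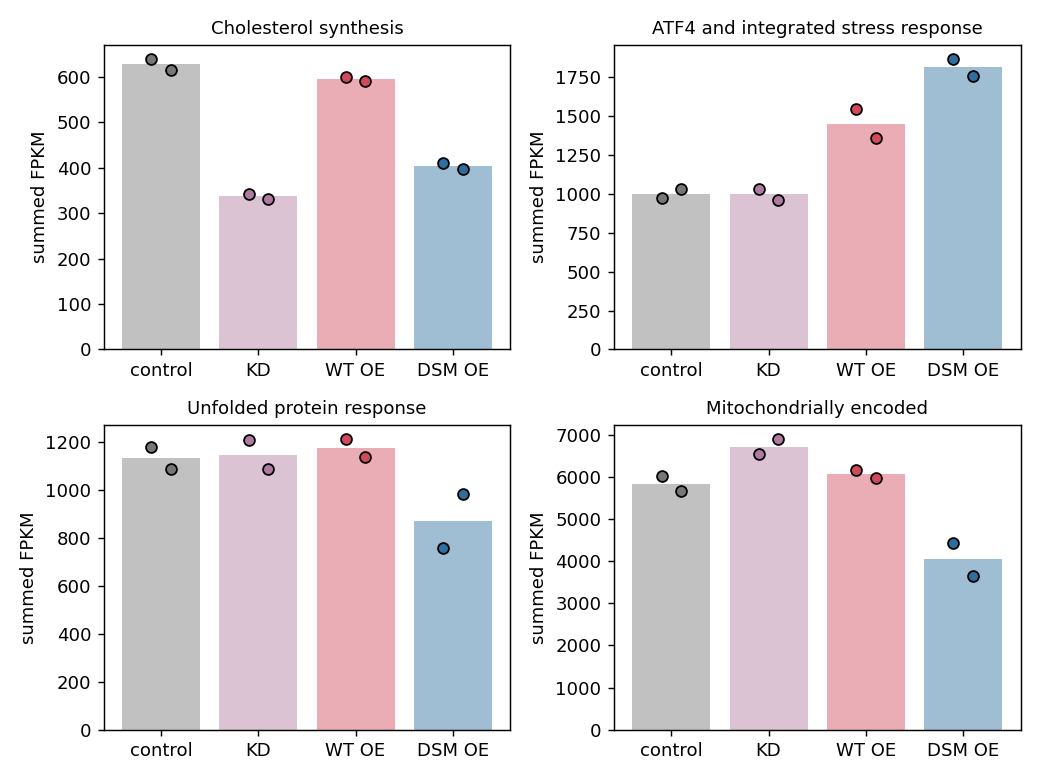
Summed FPKM of the genes of 4 lists in each line, with 1 point per library and a bar for the mean of the 2 libraries. Cholesterol synthesis was at 600 and 592 in WT OE against 409 and 398 in DSM OE, the integrated stress response list at 1542 and 1362 and at 1866 and 1759, and the mitochondrially encoded genes at 6155 and 5980 and at 4440 and 3647.

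Transcripts of the mitochondrial genome were more abundant in WT OE than in DSM OE. The 13 genes encode subunits of the respiratory chain and of ATP synthase. Of these, 5 were called higher and 0 lower, against 0.946% and 0.65% of all genes tested. At an unadjusted p under 0.05, 9 were higher, against 8.78%. A positive sign was seen in 12, and the median log2 difference was 0.55. *MT-ND4* was at 353 and 333 in WT OE against 186 and 186 in DSM OE, against 364 and 362 in control and 362 and 373 in KD (log2 difference 0.88, standard error 0.07, adjusted p = 0.0116). *MT-CO2* was at 1707 and 1556 in WT OE against 995 and 874 in DSM OE (log2 difference 0.80, adjusted p = 0.0370). *MT-ND4L*, *MT-CO1* and *MT-ND5* were the others, with differences of 0.75, 0.72 and 0.59. *MT-CO3* was at 93.6 and 112 in WT OE against 112 and 97.2 in DSM OE (log2 difference -0.03).

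Both WT OE libraries were below both control libraries in *MT-ND4* and *MT-CO1* and above them in *MT-CO2* and *MT-ND5*. In *MT-ND4L* they overlapped control. In each of these genes both DSM OE libraries were below control, and the mean of WT OE was nearer to control than that of DSM OE. Over the list the DSM OE libraries were below both control libraries in 10 of 13 genes, against 27.8% of all genes tested. The *MT-ND4* call was lost without either control or either KD library, and the other 4 calls were lost with at least 7 of the 8 libraries left out.

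**Figure D3:**
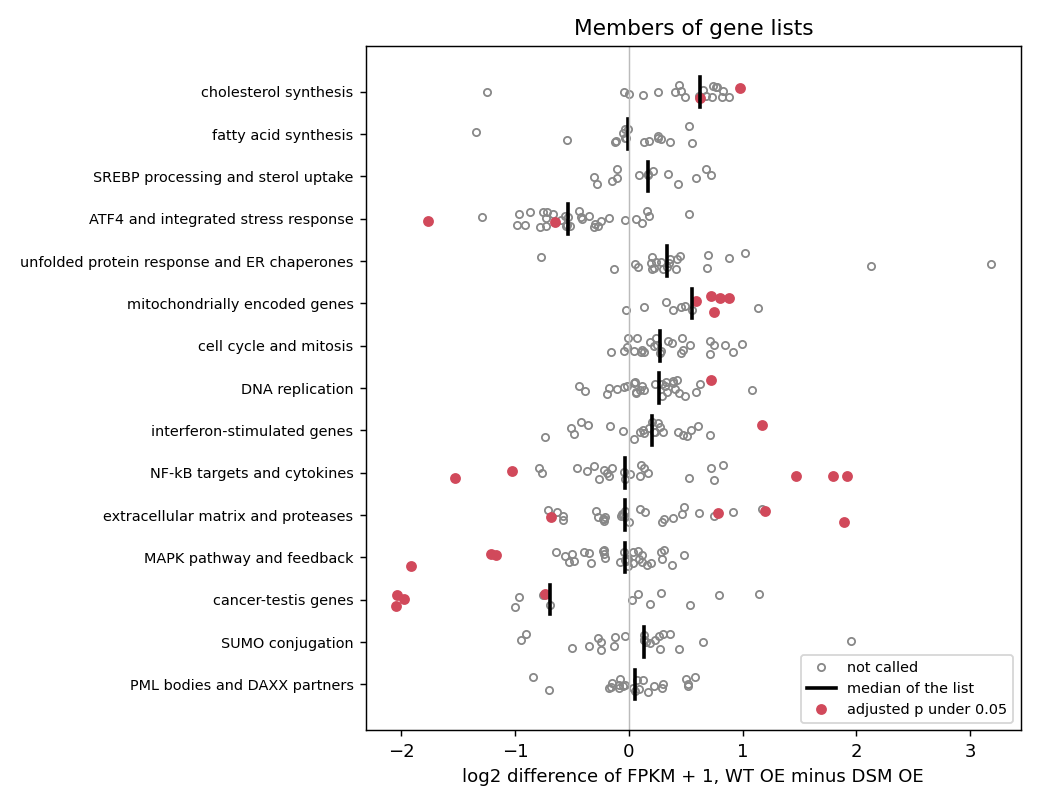
Log2 difference of FPKM + 1 between WT OE and DSM OE for each tested member of 15 gene lists, with the median of a list as a black bar and members at an adjusted p under 0.05 in red. The medians were 0.63 for cholesterol synthesis, 0.55 for the mitochondrially encoded genes, -0.54 for the integrated stress response list and -0.69 for the cancer-testis genes. Over all genes tested the median was -0.01, and the medians of the other lists shown were closer to it.

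Cytokine genes were called in both directions. Of 26 NF-kB targets and cytokines, 3 were higher (*CCL2*, *CSF3* and *CXCL1*) and 2 lower (*IL1B* and *IL1A*) in WT OE, with a median log2 difference of -0.04. Over all genes tested, 0.946% were called higher and 0.65% lower. *CXCL1*, which encodes a neutrophil chemokine, was at 9.04 and 8.94 in WT OE, 2.96 and 2.27 in DSM OE, and 1.07 and 1.74 in control (log2 difference 1.47, standard error 0.17, adjusted p = 0.0233). *CSF3*, which encodes G-CSF, was at 3.17 and 4.02 in WT OE against 0.228 and 0.413 in DSM OE (log2 difference 1.80, adjusted p = 0.0221). *IL1A* was at 0.259 and 0.304 in WT OE against 1.89 and 1.37 in DSM OE (log2 difference -1.03, adjusted p = 0.0311). These 5 were among 19 of the 26 genes that were called higher in KD than in control, against 3.51% of all genes tested. In KD *CXCL1* was at 191 and 199 and *CSF3* at 29.5 and 25.3. *CXCL8* and *IL6* had positive differences of 0.83 and 0.75 without passing the test (adjusted p = 0.0732 and 0.389). The *CXCL1* call was lost without either KD, either WT OE or the second DSM OE library, the *CSF3* call also without the first, and the *IL1A* call with each library left out.

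Of 35 genes of the MAPK pathway and its feedback, 3 were lower and 0 higher in WT OE, against 0.65% and 0.946% of all genes tested. At an unadjusted p under 0.05, 7 were lower and 1 higher, against 7.84% and 8.78%. The median was -0.03. *AREG*, which encodes the EGF receptor ligand amphiregulin, joined *DUSP5* and *RPS6KA2*. It was at 5.09 and 4.40 in WT OE, 13.3 and 11.4 in DSM OE, and 8.42 and 8.66 in control (log2 difference -1.21, standard error 0.12, adjusted p = 0.0194). *HBEGF*, which encodes another ligand of that receptor, was at 19.9 and 19.2 in WT OE against 32.0 and 30.2 in DSM OE (adjusted p = 0.0546). The *AREG* call was lost with 6 of the 8 libraries left out, all but WT OE replicate 1 and DSM OE replicate 2.

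Among genes of the extracellular matrix and its proteases, 3 of 31 were higher and 1 was lower in WT OE, with a median of -0.03. Over all genes tested, 0.946% were called higher and 0.65% lower. Beside *THBS1*, *FN1*, which encodes fibronectin, was at 39.5 and 48.1 in WT OE, 20.0 and 17.0 in DSM OE, and 23.6 and 29.7 in control (log2 difference 1.20, adjusted p = 0.0445). *COL4A2*, which encodes a basement membrane collagen, was at 48.5 and 45.4 in WT OE against 25.01 and 28.7 in DSM OE (log2 difference 0.79, adjusted p = 0.0314). *LAMB3*, which encodes a chain of laminin-332, was lower in WT OE at 165 and 179, against 274 and 281 in DSM OE, and both lines were above the 81.5 and 91.5 of control (log2 difference -0.69, adjusted p = 0.0360). *LAMA3*, which encodes another chain of it, had the same sign, with a log2 difference of -0.71 (adjusted p = 0.0949). The calls of *FN1*, *COL4A2* and *LAMB3* were lost with each library left out.

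Single members were called in further lists. *BST2*, which encodes the antiviral protein tetherin, was the 1 interferon-stimulated gene of 25 that was called, at 38.8 and 41.9 in WT OE against 20.3 and 14.9 in DSM OE, both below the 70.5 and 71.6 of control (log2 difference 1.17, adjusted p = 0.0328). At an unadjusted p under 0.05, 7 genes of that list were higher and 4 lower, against 8.78% and 7.84% of all genes tested. *ADM*, a hypoxia-induced peptide hormone gene, was at 9.37 and 10.4 in WT OE against 4.49 and 3.22 in DSM OE (adjusted p = 0.0310). *CAV1*, which encodes the coat protein of caveolae, was at 62.2 and 66.3 in WT OE against 35.8 and 37.2 in DSM OE (adjusted p = 0.0288). *AKR1C3*, an NRF2 target that encodes a ketosteroid reductase, was lower at 2.69 and 3.16, against 8.06 and 7.32 (adjusted p = 0.0233). The calls of *CAV1* and *AKR1C3* were lost with each library left out, and those of *BST2* and *ADM* with each but DSM OE replicate 1.

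Cancer-testis genes, which are silent in most adult tissues outside the germ line, were lower in WT OE where they were called. Of 15 tested, 4 were called lower and 0 higher, against 0.65% and 0.946% of all genes tested. At an unadjusted p under 0.05 the counts were 8 lower and 3 higher, against 7.84% and 8.78%. The sign was negative in 8 genes and positive in 7, with a median log2 difference of -0.69. *SPANXA1* was at 23.6 and 30.9 in WT OE against 143 and 92.2 in DSM OE, and *SPANXA2* at 24.9 and 31.3, and 147 and 95.2 (log2 differences -2.05 and -2.04, adjusted p = 0.0233 and 0.0220). These 2 genes are near-identical copies and are 1 observation rather than 2. Control, at 58.4 and 56.0 for *SPANXA1*, lay between the lines, and *SPANXB1*, the most abundant of the family, was at 602 and 683 in WT OE, 1261 and 853 in DSM OE, and 420 and 428 in control (adjusted p = 0.157). *XAGE1B* was at 9.17 and 10.6 in WT OE against 17.8 and 16.4 in DSM OE (adjusted p = 0.0419), and its copy *XAGE1A* at 18.3 and 22.2, and 34.9 and 34.5 (adjusted p = 0.202). Both *SPANXA* calls were kept without either DSM OE library and lost without any other, and the *XAGE1B* call was lost with each library left out.

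In lists of the machinery that the mutation touches, 1 of 59 genes was called (1.69%), close to the 1.6% of all genes tested. Of 23 genes of SUMO conjugation 0 were called by limma, with 1 higher and 1 lower at an unadjusted p under 0.05 and a median of 0.13. *SUMO2* was at 30.5 and 30.2 in WT OE against 62.1 and 53.3 in DSM OE, and *SUMO3* at 45.3 and 45.6, and 3.05 and 34.4 (adjusted p = 0.264 and 0.358), the latter with DSM OE duplicates that were far apart. Of 23 genes of PML bodies and DAXX partners 0 were called by limma, with 3 higher and 2 lower at an unadjusted p under 0.05 and a median of 0.05. *PML* was at 7.36 and 5.23 in WT OE against 6.60 and 6.70 in DSM OE (log2 difference -0.08). Of 13 genes of H3.3 and its chaperones *ASF1B*, a histone chaperone gene of S phase, was called, at 50.2 and 45.6 in WT OE against 27.8 and 26.9 in DSM OE, against 57.9 and 58.4 in control (log2 difference 0.79, adjusted p = 0.0233). *ATRX* was at 2.59 and 2.97, and 2.49 and 2.88 (log2 difference 0.04). The *ASF1B* call was lost with each library left out.

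Proliferation genes had small positive differences. Of 27 genes of the cell cycle and mitosis, 0 were called by limma, 7 were higher and 0 lower at an unadjusted p under 0.05, 23 had a positive sign and the median was 0.28. Of 30 genes of DNA replication, *CDC6*, which loads the replicative helicase, was called (13.8 and 14.3 in WT OE against 8.38 and 7.87 in DSM OE, adjusted p = 0.0453), 7 were higher and 0 lower at an unadjusted p under 0.05, and the median was 0.26. Over all genes tested 1.6% were called, and 8.78% were higher and 7.84% lower at an unadjusted p under 0.05. *CCND1*, which encodes cyclin D1, was at 173 and 154, and 164 and 172 (log2 difference -0.04). The WT OE libraries were below both control libraries in 19 of the 30 replication genes and in 12 of the 27 cell cycle genes. The DSM OE libraries were below them in 22 and 16. Over all genes tested these shares were 25.2% for WT OE and 27.8% for DSM OE. The *CDC6* call was lost with each library left out.

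The effect of *DAXX* knockdown was set beside these differences, since KD and control share no library with WT OE and DSM OE. Across the 10465 genes the log2 difference of KD and control and that of WT OE and DSM OE had a Pearson r of -0.01 and a Spearman rho of -0.02. Of the 99 genes higher in WT OE, 19 were called lower in KD and 20 higher, and of the 68 lower in WT OE, 11 were called lower and 17 higher in KD. Over all genes tested 3.69% were called lower and 3.51% higher in KD. Both contrasts come from 1 fit and use the same standard error for a gene, whose median was 0.12 among the called genes against 0.17 over all genes tested, so a call in one favours a call in the other and the shares are a description. Among the genes lower in KD, 4.92% were called higher in WT OE and 2.85% lower. Among the genes higher in KD, 5.45% were called higher in WT OE and 4.63% lower. Over all genes tested the shares were 0.946% higher and 0.65% lower in WT OE.

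Genes that were high with wild-type DAXX against the mutant and low with less DAXX included *GALNT1* (-2.81 in KD against control), *KISS1* (-1.79), *LGR6* (-1.57), *ALPP* (-2.48), *PGF* (-1.48), *INHBB* (-2.79) and *HSD17B7* (-0.83). *GALNT1*, which encodes an enzyme that starts mucin-type O-glycans, was at 17.5 and 22.8 in WT OE, 0.231 and 2.59 in DSM OE, 15.6 and 12.5 in control, and 1.31 and 0.953 in KD, and kept its call only without a DSM OE library. Genes that were low with wild-type DAXX against the mutant and high with less DAXX included *IL1B* (5.87), *PAGE5* (4.11), *BMP2* (1.83), *G0S2* (1.54) and *LAMB3* (0.58). *BMP2*, which encodes a bone morphogenetic protein, was at 3.88 and 3.01 in WT OE, 9.99 and 11.4 in DSM OE, 2.42 and 2.15 in control, and 11.1 and 10.3 in KD. Its call was kept only without WT OE replicate 1 or DSM OE replicate 1. The same direction in both contrasts was seen in *CXCL1* (6.36), *CSF3* (4.54), *CCL2* (3.69) and *TMEM47* (2.93), which were higher in WT OE and in KD, and in *GDF15* (-2.77), *SPNS2* (-3.73) and *AREG* (-1.39), which were lower in both.

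**Figure D4:**
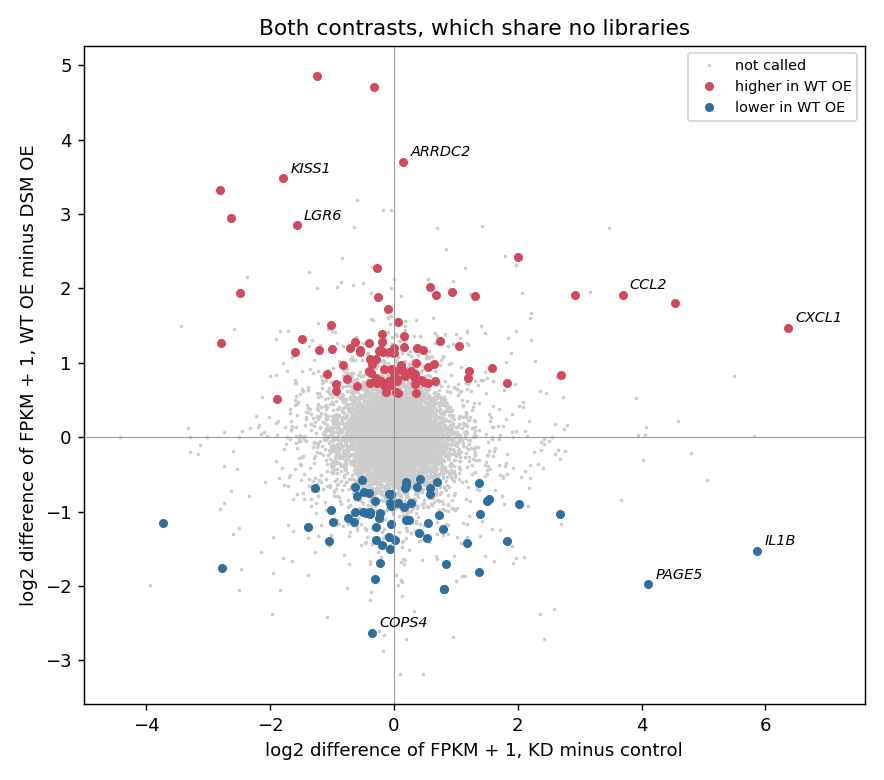
Log2 difference of FPKM + 1 between WT OE and DSM OE (vertical) against that between KD and control (horizontal) for the 10465 genes tested, with the 99 genes called higher in WT OE in red and the 68 called lower in blue. Called genes lie on all sides of the origin, and the correlation across all genes was -0.01.

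*GNAS*, which encodes the stimulatory G protein alpha subunit, had the largest difference of all called genes. It was at 27.5 and 56.3 in WT OE, 0.403 and 0.388 in DSM OE, 29.9 and 29.1 in control, and 5.60 and 24.1 in KD (log2 difference 4.86, standard error 0.64, adjusted p = 0.0334). It has 20 RefSeq transcripts, and the sources used here do not say how their values were joined. Its call was kept without either KD library and lost without any other. *RAB31*, which encodes a small GTPase of vesicle transport, was at 12.3 and 19.3 in WT OE against 2.67 and 2.16 in DSM OE (log2 difference 2.27, adjusted p = 0.0194). *SDC1*, which encodes the heparan sulfate proteoglycan syndecan-1, was at 35.3 and 30.9, and 10.3 and 14.1 (log2 difference 1.38, adjusted p = 0.0270). *SERINC2* (19.4 and 14.6, against 5.37 and 5.23) and *KNSTRN*, a spindle protein gene (5.46 and 8.68, against 1.02 and 1.82), were also among the larger differences. The *KNSTRN* call was lost with each library left out, that of *SERINC2* with each but WT OE replicate 2, that of *SDC1* with each but DSM OE replicate 2, and that of *RAB31* was kept only without a WT OE library.

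On the lower side, *GFPT2*, which encodes an enzyme at the entry of the hexosamine pathway, was at 0.968 and 1.11 in WT OE, 6.30 and 5.00 in DSM OE, 8.28 and 8.96 in control, and 14.5 and 18.0 in KD (log2 difference -1.70, adjusted p = 0.0146). *NUMA1*, which encodes a spindle pole protein, was at 6.95 and 4.96 in WT OE against 19.8 and 22.6 in DSM OE, the latter near the 18.4 and 18.9 of control (log2 difference -1.69, adjusted p = 0.0448). *AKAP12*, which encodes a scaffold of protein kinase A, was at 9.44 and 10.2 in WT OE against 28.4 and 25.8 in DSM OE, with control at 8.77 and 10.3 (log2 difference -1.38, adjusted p = 0.0116), and kept its call in 6 of the 8 fits with a library left out. *RBCK1*, which encodes a subunit of the linear ubiquitin ligase complex, was at 7.67 and 6.29, and 20.1 and 18.3 (log2 difference -1.34, adjusted p = 0.0143). *PRSS3*, a trypsinogen gene, was at 3.98 and 5.08, and 15.3 and 12.4, and *FZD8*, a WNT receptor gene, at 36.1 and 27.3, and 66.5 and 85.8 (log2 differences -1.42 and -1.24, adjusted p = 0.0233 and 0.0420). The calls of *NUMA1*, *PRSS3* and *FZD8* were lost with each library left out, that of *RBCK1* without a control or KD library, and that of *GFPT2* without a control or WT OE library.

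The differences were not even over the chromosomes. The median log2 difference of the tested genes was 0.21 on chromosome 7 (484 genes) and 0.15 on chromosome 13 (181 genes), and -0.19 on chromosome 10 (404 genes), -0.15 on chromosome 18 (149 genes) and -0.11 on chromosome 16 (474 genes), against -0.01 over all genes tested. On chromosome 7 each of 9 runs of 50 neighbouring genes had a positive median, from 0.14 to 0.36, and on chromosome 10 the median was negative in 7 of 8 runs. Against control, the chromosome 7 median was -0.01 for WT OE but -0.22 for DSM OE, and that of chromosome 10 was -0.04 for WT OE but 0.15 for DSM OE. Between duplicates the medians of these 2 chromosomes were between -0.05 and -0.01 in WT OE and -0.02 in DSM OE. Other chromosomes shifted more between duplicates, with medians from -0.07 to 0.05 for chromosomes 13, 16 and 18 and medians of 0.15 in WT OE and -0.09 in DSM OE for chromosome 19, a spread close to the differences of chromosomes 13, 16 and 18. Chromosome 7 held 9 of the 99 genes called higher and 2 of the 68 called lower, and chromosome 10 held 1 and 7. In both directions together, 2.27% of the tested genes of chromosome 7 and 1.98% of those of chromosome 10 were called. This is near the 1.6% of all genes tested, and chromosome 20 had a larger share (2.92%). DNA copy number was not measured in these data.

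**Figure D5:**
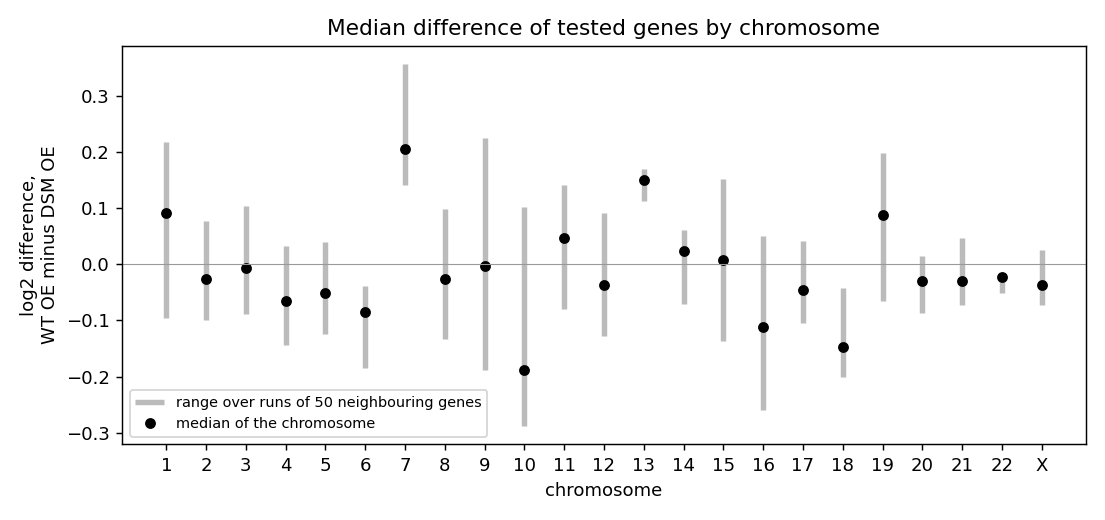
Median log2 difference of FPKM + 1 between WT OE and DSM OE over the tested genes of each chromosome (black points), with grey bars for the range of medians over runs of 50 neighbouring genes. Chromosome 7 stood highest at 0.21, with all 9 runs above 0, and chromosome 10 lowest at -0.19.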

How the data were processed

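The members and gene lists were chosen with earlier results of these data known. Polyadenylated RNA was sequenced from 2 libraries of each of 4 lines. The authors deposited FPKM per gene. Their methods name HISAT2, StringTie and Ballgown with GRCh38, and the submitters' notes also name hg19. The methods state 1 number of raw reads for every sample. The mapped depth of each library is not in the table, and no counts were used, so low values have an unknown counting error. All 8 columns were matched to samples by label, and 0 columns belonged to other series. FPKM of the 10465 genes with at least 1 in at least 2 libraries was set to log2(FPKM + 1), a scale that understates changes of low genes, and fitted to 4 group means in limma 3.58.1 (R 4.3.3) with a variance trend. This left 4 residual degrees of freedom, to which the prior gave 1.863 more. P-values are two-sided and adjusted by Benjamini-Hochberg over all tested genes, with a threshold of 0.05. The smallest p of an exact test of 2 against 2 libraries is above it, so none was run. Named genes are *DAXX*, the 15 largest called changes each way among genes with a symbol, no overlap and a mean of 5 FPKM or more where higher, and up to 4 called members of each of 35 lists or else the 2 most abundant. The 20 genes called in every leave-out, and list members named beyond the rule, were chosen after their values were seen. The fit was tested on simulated data. Symbols and sequences came from RefSeq (GRCh38.p14). Results for some genes that the rule names are not reported here.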

Additional observations from a re-analysis of the deposited data

How the results depend on the processing

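The counts of genes higher and lower in WT OE (99 and 68) became 65 and 45 among genes with a mean FPKM of at least 5, 0 and 0 in a fit of both lines alone, 15 and 7 with the replicate block, and 683 and 631 by a fold over 1.3 with an unadjusted p. They ranged from 16 to 77 and from 7 to 46 with a library left out. A pseudocount of 0.1, no low-value filter, median scaling, quantile normalization, no variance trend and a robust fit gave 86 to 108 and 57 to 97. All 167 calls kept their sign in each alternative in which they were tested. Where the libraries of both lines do not overlap, a fit without rescaling cannot turn the sign, so most of these fits do not test it. The count of cholesterol synthesis genes called higher (2) was 0 with a pseudocount of 0.1, no filter, median scaling, the lines alone and the block, 1 with the stricter filter, quantile normalization and no trend, 14 by the fold rule, and 0 to 2 with a library left out. The *DAXX* difference of 1.43 passed by the fold rule alone, and ranged from 1.01 to 1.85 with a library left out. Genes whose libraries did not overlap numbered 5014, 2674 with the stricter filter and 5014 to 7838 with a library left out. Replicate numbers did not pair the samples (correlation of deviations -0.06 to 0.04), so the block only uses up a degree of freedom. Mapped depth per library is not in the table, and 2 libraries per line limit the test: with the lines alone no gene was called.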
